A study of Mus musculus with 30 samples.

Results

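Rbm3 and Cirbp encode the cold-inducible RNA-binding proteins, and they are described here in kidney, brain and heart of aging mice. The members are all probes annotated to the 2 genes, which were chosen by their measured log2 differences between the age groups on these same arrays. They comprised 4 of the 25697 probes on the array, or 2 of 16593 genes, with 3 probes for Rbm3 and 1 for Cirbp. RNA from 3 tissues of each of 10 mice was hybridised to Illumina BeadChips, giving 30 arrays. All mice were wildtype males of the C57BL/6JRj strain. In each tissue there were 4 control mice aged 25 weeks (young controls) and 2 aged 25 months (old controls). The third group was 4 rapamycin-treated mice, also aged 25 months. Rapamycin inhibits the kinase mTOR, mainly as part of mTOR complex 1. Per the labels, treatment of mice analysed at this age began at 13 months and had lasted more than 12 months.

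Replicates were separate mice, and the mouse identifiers in the labels link the 3 tissues. The sample titles went against the other labels, since they mark the 25-month controls with "y" and the 25-week controls with no age. Groups follow the source name and the stated age. If the titles held, with "y" read as young, the sign of every age difference would turn, and the comparisons of treated mice with old and with young controls would change places. Age also cannot be told apart from any other difference between these sets of mice, such as the hour of collection or body temperature, which are not given in the sources used here. Between 9989 and 13562 probes were detected per array. The kidney array of rapamycin-treated mouse 2 had the lowest count and a median signal of 100.8 intensity units, against 117.5 to 130.7 on the other kidney arrays, so kidney results are given with and without it. For each labelled organ 9 defining markers were listed, of which 8 were on the array. Of these, 8 in kidney, 6 in brain and 8 in heart were detected on enough arrays to be tested. All the tested markers were found on every array of the young and old controls of their organ. In treated mice, 7 of 8, 6 of 6 and 8 of 8 were found on every array.

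RBM3 and CIRBP are small glycine-rich proteins with an RNA recognition motif. Their mRNAs rise when mammalian cells are mildly cooled and fall on warming, and in mice they follow the daily rhythm of body temperature. Both proteins bind mRNA and affect its stability, translation and polyadenylation, and circadian transcripts are among the reported targets. RBM3 has been linked to the maintenance of synapses after cooling in mouse brain, and CIRBP released from cells acts as an inflammatory signal.

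Rbm3 lies on chromosome X at chrX:8138975-8145880 and Cirbp on chromosome 10 at chr10:80165990-80172786 (RefSeq, GRCm38.p6). Sequence before a start site of Cirbp is shown because the mild-cold responsive element was described in the mouse Cirbp promoter. The RefSeq promoter table held Cirbp with 2 start sites, and did not list Rbm3. The 250 bases before the start site listed first, on the plus strand at chr10:80167589-80167838, carry the letters CCCCGCC, part of that element, at 2 places. In the sequence below, written 5′ to 3′, capitals mark these matches, the first on the plus strand and the other on the minus strand.
Cirbp start site 1: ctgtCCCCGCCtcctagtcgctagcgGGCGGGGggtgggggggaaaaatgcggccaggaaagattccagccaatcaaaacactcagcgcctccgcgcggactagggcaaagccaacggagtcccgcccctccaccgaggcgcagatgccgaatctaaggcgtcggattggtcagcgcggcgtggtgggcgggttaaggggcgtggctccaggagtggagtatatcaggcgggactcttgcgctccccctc
The minus-strand match overlaps a GC box, GGGCGG, of which the window holds 3. The window of the other start site holds CCCCGCC at 1 place. Each window lies inside the Cirbp gene span given above, downstream of its first base. Both strands were searched, and 21.4% of 32851 promoter windows of the same length hold CCCCGCC and 32.7% hold GGGCGG. Neither Cirbp window contains the letters of the E-box CACGTG (6.02% of windows) or of the heat shock motif GAANNTTC (6.69% of windows). These matches describe letters and not binding sites.

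The bright Rbm3 probe, ILMN_1234453, was detected on all 30 arrays and had its higher levels in both groups of 25-month mice. In brain its normalised log2 intensity was 9.30, 8.94, 9.12 and 9.23 in the young controls, 10.86 and 10.33 in the old controls, and 10.33, 9.91, 10.60 and 10.31 in the rapamycin-treated mice. Every 25-month mouse lay above every 25-week mouse, and the treated mice overlapped the old controls. Both genes were chosen by their age differences. The share of all probes with such a separation of groups, here and below, was not computed. The difference of old from young controls was 1.45 ± 0.18 on the log2 scale (SE from the fit over all 10 arrays), or 2.72-fold. Treated mice differed from young controls by 1.14 ± 0.15 and from old controls by -0.30 ± 0.18. In whole tissue, more cells of a type that carries the mRNA and more mRNA per cell cannot be told apart.

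In heart the Rbm3 levels were 8.92, 8.84, 8.64 and 8.75 in the young controls, 10.10 and 9.65 in the old controls, and 9.87, 9.60, 10.13 and 9.73 in the treated mice. The groups stood as in brain, with no overlap between ages and an overlap of the 25-month groups. Old controls were higher than young controls by 1.09 ± 0.17 (2.13-fold) and treated mice higher than young controls by 1.04 ± 0.14. The difference of treated mice from old controls was -0.05 ± 0.17.

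In kidney the Rbm3 levels were 8.59, 8.17, 8.20 and 8.63 in the young controls and 10.46 and 10.03 in the old controls. Treated mice 1 to 4 had 10.14, 6.98, 9.88 and 9.56. The value of 6.98 belonged to the array that stood apart and was the lowest of all 10, while the other treated mice lay above all young controls. The age difference was 1.85 ± 0.72 (3.60-fold) with that array in the fit and 1.82 ± 0.19 without it. Treated mice differed from young controls by 0.74 ± 0.59 with it and 1.44 ± 0.17 without it, and from old controls by -1.10 ± 0.72 and -0.38 ± 0.20. Its size against old controls in kidney thus rests on that array.

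**Figure D1:**
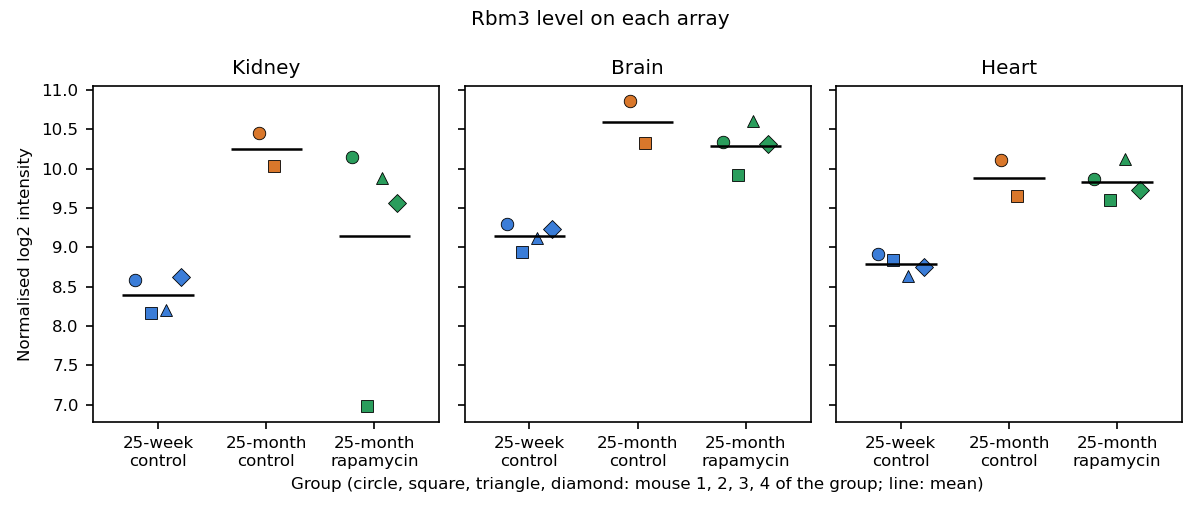
Normalised log2 intensity of the bright Rbm3 probe on each array, by group, in kidney, brain and heart. Each point is 1 mouse and each line a group mean. All 25-month mice lie above the young controls except treated mouse 2 in kidney, at 6.98.

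The single Cirbp probe, ILMN_2761594, was also detected on all 30 arrays, and it too had its higher levels in the 25-month groups of brain and heart. In brain the young controls had log2 levels of 7.58, 7.52, 7.72 and 7.89, the old controls 8.77 and 8.43, and the treated mice 8.66, 8.08, 8.77 and 8.36. All 6 mice aged 25 months were above all 4 young controls. The old controls exceeded the young by 0.93 ± 0.18 (1.90-fold) and the treated mice exceeded the young by 0.79 ± 0.14. Treated mice differed from old controls by -0.14 ± 0.18.

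In heart Cirbp stood at 6.77, 6.82, 7.27 and 7.08 in the young controls, 7.90 and 7.58 in the old controls, and 8.002, 7.45, 8.23 and 7.81 in the treated mice. The ages again did not overlap, and the lowest treated mouse was 0.18 log2 units above the highest young control. The differences from young controls were 0.75 ± 0.21 (1.69-fold) for old controls and 0.89 ± 0.17 for treated mice, and treated mice differed from old controls by 0.13 ± 0.21.

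In kidney the Cirbp levels were 6.53, 6.26, 6.54 and 6.81 in the young controls, 7.24 and 6.95 in the old controls, and 7.33, 6.16, 7.54 and 7.22 in treated mice 1 to 4. Treated mouse 2 was again the lowest array, below every young control, and the other treated mice were above them. The age difference was 0.56 ± 0.35 (1.48-fold) with its array and 0.56 ± 0.16 without it. Treated mice exceeded young controls by 0.53 ± 0.28 and, without that array, by 0.83 ± 0.14. Against old controls the Cirbp difference was -0.03 ± 0.35 with the array and 0.27 ± 0.17 without it, so its sign turns with 1 library.

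**Figure D2:**
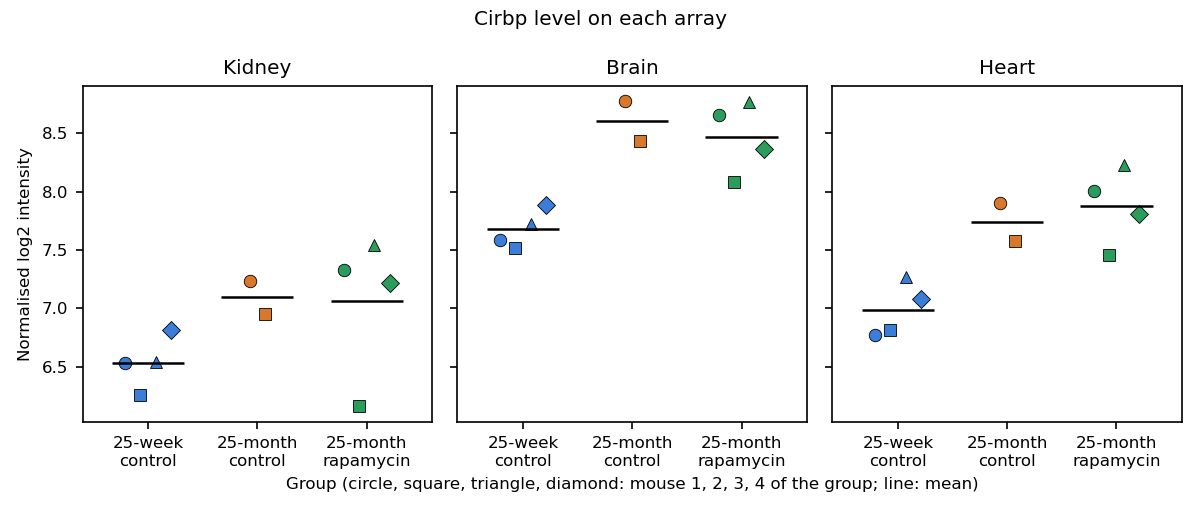
Normalised log2 intensity of the Cirbp probe on each array, by group, in kidney, brain and heart. Each point is 1 mouse and each line a group mean. In brain and heart the 25-month mice lie above the young controls, with a gap of 0.18 log2 units to the lowest treated mouse in heart.

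Since these contrasts were known when the genes were chosen, the counts of member probes past an adjusted p of 0.05 in limma are given as a description beside the share of all tested probes. For old against young controls, 0 of the 4 probes were past it in kidney, 2 in brain and 1 in heart, where 0.0942%, 0.85% and 0.624% of all probes were. For treated mice against young controls the counts were 0 in kidney, 2 in brain and 2 in heart, beside 0.369%, 1.09% and 0.944% of all probes. Without the kidney array that stood apart, 2 probes were past the threshold in each of these kidney comparisons, where 9.63% and 8.47% of all probes were. For treated mice against old controls the count was 0 in every tissue, and 0%, 0.0276% and 0% of all probes were past it in kidney, brain and heart. By limma, 418, 1422 and 1598 of all probes had an unadjusted p under 0.05 in that comparison.

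The other Rbm3 probes did not show the pattern of the bright one. ILMN_1253012 and ILMN_2985568 gave log2 levels of 4.44 to 5.90 on every array, close to the background, and were detected on only some arrays. In heart, for example, ILMN_1253012 was detected in 0 of 2 old controls, 2 of 4 young controls and 3 of 4 treated mice. Their age differences ran from -0.24 ± 0.17 to 0.20 ± 0.15. Across the 10 arrays of a tissue their Pearson correlation with the bright probe lay between -0.55 and 0.43, as a description. The only separation was in heart, where ILMN_2985568 was lower in every treated mouse (4.67 to 5.17) than in every young control (5.30 to 5.43). All 3 probes are annotated to the same Rbm3 transcript record, so the differences given above rest on 1 probe for each gene.

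With all 30 arrays normalised together, Cirbp followed the order brain, heart, kidney. Its level was higher in brain than in kidney in 10 of 10 mice, by 1.01 ± 0.27 log2 units (SD over mice), and higher in heart than in kidney in 10 of 10 mice, by 0.80 ± 0.28. Without the kidney array that stood apart, a setting added after the data were seen, these were 0.95 ± 0.20 and 0.73 ± 0.18 in 9 of 9 mice each. Brain exceeded heart in 9 of 10 mice, by 0.21 ± 0.15. For Rbm3, brain exceeded kidney in 10 of 10 mice, by 0.70 ± 0.74, and heart exceeded kidney in 7 of 10, by 0.55 ± 0.83, each mean being smaller than the SD over mice. Without that kidney array the brain difference was 0.48 ± 0.20 in 9 of 9 mice, larger than the SD, and the heart difference 0.31 ± 0.36 in 6 of 9. Rbm3 was higher in brain than in heart in 8 of 10 mice, by 0.15 ± 0.24, a mean smaller than the SD. The SD gives the spread over mice and is not a test of these differences. In kidney of treated mice its mean was 9.14 ± 1.41 (SD, n = 4) with the array and 9.83 ± 0.28 (SD, n = 3) without it. Among the young controls Rbm3 stood at 8.41 ± 0.24 in kidney, 8.96 ± 0.16 in brain and 9.003 ± 0.12 in heart (SD, n = 4). Among the old controls it stood at 10.20 ± 0.29, 10.52 ± 0.42 and 10.05 ± 0.32 (SD, n = 2). The joint normalization gives all arrays 1 distribution of intensities, which bears on these differences between organs.

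Some mice were high or low in their group in every organ. Old control 1 was above old control 2 in 6 of 6 combinations of gene and tissue, rapamycin-treated mouse 2 was the lowest of its group in 6 of 6, and treated mouse 3 was the highest in 5 of 6. Deviations from the group means, which do not depend on the group differences, were compared over the 10 mice by an exact two-sided permutation test within groups, adjusted over 9 relations. Cirbp in kidney followed Cirbp in brain with a Pearson r of 0.90 (p = 0.000868, the smallest these permutations can give, adjusted p = 0.00781), and a Spearman rho of 0.92 with the same adjusted p in the exact permutation test. Cirbp deviations in heart followed those in brain (r = 0.91, rho = 0.79) and kidney (r = 0.82, rho = 0.76), both with an adjusted permutation p of 0.0286 for r and 0.0413 for rho.

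Rbm3 and Cirbp deviated together within kidney (r = 0.95, rho = 0.93) and within brain (r = 0.84, rho = 0.84), each with an adjusted permutation p of 0.0286 for r, and of 0.0234 and 0.0413 for rho. In heart this relation did not pass (r = 0.51, rho = 0.42, adjusted exact permutation p = 0.208 and 0.3003). Rbm3 in kidney followed Rbm3 in brain (r = 0.75, rho = 0.72, adjusted permutation p = 0.0286 and 0.0413). Rbm3 in brain and heart had r = 0.84 (adjusted permutation p = 0.0513) and rho = 0.87 (adjusted permutation p = 0.0413), and kidney and heart had r = 0.61 and rho = 0.50 (adjusted permutation p = 0.171 and 0.213).

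Leaving out 1 mouse ended some of these 6 calls in most cases. Without old control 1 or old control 2, 5 calls were lost, with r of Rbm3 and Cirbp in kidney at 0.95 as before. The old control left over equals its own group mean, so its deviation is 0. These settings thus in effect remove both old controls. Without treated mouse 1, 3 or 4 the calls lost were 4, 3 and 5, without young control 2 or 4 they were 4 and 2, and without young control 1 or 3 they were 0. Treated mouse 2 was the mouse whose removal ended all 6. Over the other 9 mice r ran from 0.27 to 0.90 over the 9 relations, with adjusted exact permutation p from 0.0938 to 0.524. Leaving out the 2 mice farthest from the median gave r from 0.02 to 0.91, again with none past the adjusted threshold. Fewer mice allow fewer permutations. The smallest possible permutation p was 0.000868 over 10 mice and 0.00347 without treated mouse 2, and it is larger still over 8 mice. A call lost in these settings therefore does not show that a relation was absent. Cirbp between kidney and brain moved least, with r = 0.90 over 9 mice and 0.88 over 8.

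**Figure D3:**
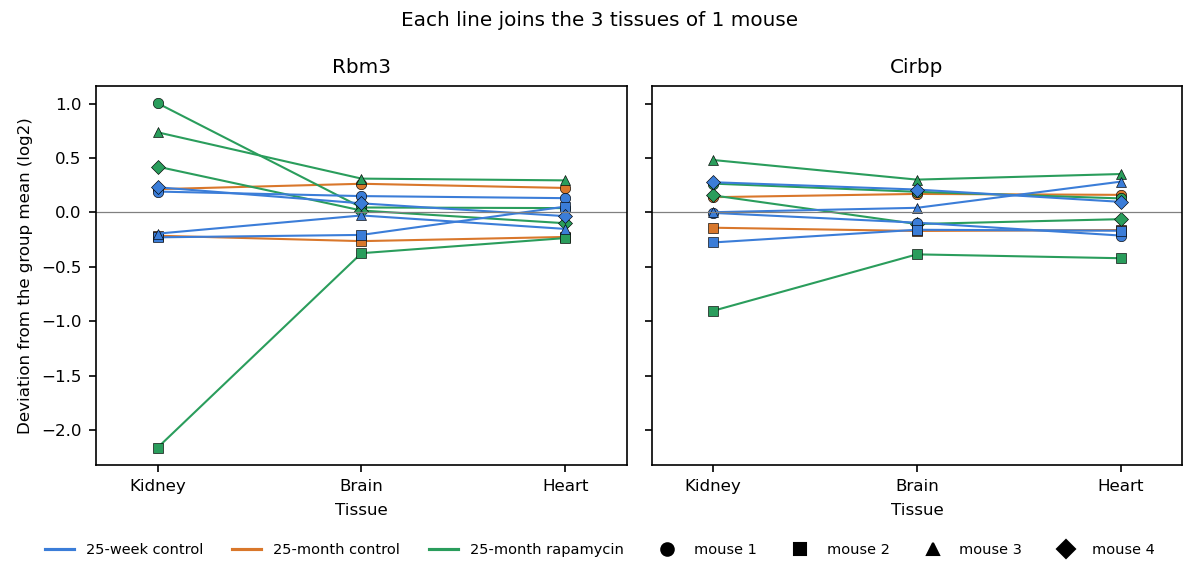
Deviation of each mouse from its group mean (log2) in kidney, brain and heart, for Rbm3 and Cirbp, with 1 line per mouse and colours for groups. Treated mouse 2 lies lowest of its group in every tissue for both genes, and old control 1 lies above old control 2 throughout.

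Over the 30 arrays, each centred on the mean of its tissue, Cirbp was the second of 8186 genes in likeness to Rbm3 and Rbm3 was the first in likeness to Cirbp, at a Pearson r of 0.88. The median r over all genes was -0.05 for Rbm3 and -0.04 for Cirbp. The other genes closest to Rbm3 were Lyz2, a lysozyme of myeloid cells (r = 0.89), Ly6c1 (0.88), Ifitm2 (0.87) and B2m, the light chain of MHC class I (0.87). Closest to Cirbp after Rbm3 were Vim, an intermediate filament protein (0.87), the interferon-induced Ifitm3 (0.87), Lgals3bp (0.84) and Pmp22 (0.83). Without the kidney array that stood apart, the genes closest to Rbm3 were Osmr, the oncostatin M receptor (0.92), Lgals3bp (0.91), Usp18 (0.90), Lyz1 (0.90) and Irak3 (0.90), with Cirbp at rank 8 (0.89). For Cirbp the order over 29 arrays was Rbm3 (0.89), Ifitm3 (0.88), Vim (0.87), the complement gene C4b (0.85) and Lgals3bp (0.84). These correlations include the group differences and the 3 organs of the same mice. The pair was chosen by its age differences on these same arrays, so the ranks of each gene for the other are not independent of that choice.

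The summed level of the genes listed as leukocyte markers, like both Rbm3 and Cirbp, was higher in old than in young controls in every tissue. Of 9 listed leukocyte genes, 6 were tested in kidney, 5 in brain and 6 in heart, and Ptprc, which encodes the pan-leukocyte antigen CD45, did not reach the detection filter in any of them. Their summed linear level in brain ran from 329 to 573 in young controls, 1241 to 2715 in old controls and 663 to 1170 in treated mice. In kidney the ranges were 238 to 371, 897 to 1596 and 571 to 1067, and in heart 862 to 1483, 2087 to 6117 and 1517 to 3711. The brain range of treated mice lay below that of old controls, and in kidney and heart the ranges of these groups overlapped. For age, 4 of the tested leukocyte genes passed in limma as higher in brain (S100a8, S100a9, Lyz2 and C1qa). The heart had 2 such genes (S100a8 and S100a9), and the kidney with all arrays had 0. The shares of all probes past the test were 0.85% (brain), 0.624% (heart) and 0.0942% (kidney). Whether or not they passed, 1 of the 6 kidney genes and 1 of the 6 heart genes had a negative age difference. Every tested brain gene had a positive one. Without the kidney array that stood apart, 4 passed there as higher, beside 9.63% of all probes in either direction. The part of the leukocyte genes in the levels of Rbm3 and Cirbp was not tested.

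Heat shock genes, which encode chaperones and rise when cells are warmed, had mostly negative age differences where Rbm3 and Cirbp had positive ones. Of 21 tested heat shock genes, 15 were negative in kidney, 17 in brain and 17 in heart, with median log2 differences of -0.19, -0.16 and -0.25. The median over all probes lay between -0.02 and -0.01 in these comparisons. Few single genes passed. Fkbp4, a cochaperone of HSP90, fell in heart of old controls by 0.68 ± 0.13 (limma adjusted p = 0.0431), the 1 of 21 to pass there. In brain Hspa4l, a member of the HSP110 family, was lower in treated mice than in young controls, with a difference of -0.80 ± 0.15 (adjusted p = 0.0242), and was detected in 1 of 4 treated mice and 4 of 4 young controls. In kidney 0 of 21 passed in limma with all arrays, and for age 1 had an unadjusted p under 0.05, against 7 in brain and 10 in heart. Without the array that stood apart, 4 fell and 1 rose with age, beside 9.63% of all probes in either direction. Among them the HSP90 cochaperones Ahsa1 (-0.60 ± 0.15, adjusted p = 0.0293) and Stip1 (-0.56 ± 0.13, adjusted p = 0.0205) and the mitochondrial chaperonin Hspd1 (-0.51 ± 0.11, adjusted p = 0.0188) fell, and the small heat shock protein gene Cryab rose by 0.56 ± 0.13 (adjusted p = 0.0241). Between treated mice and old controls 0 passed in any tissue, with 0, 1 and 3 at an unadjusted limma p under 0.05 in kidney, brain and heart.

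Of the 5 gene lists, the clock and D-box genes had the most members past the test for age. Dbp, a transcription factor whose mRNA cycles strongly over the day, was higher in old than young controls in kidney by 1.60 ± 0.22 (limma adjusted p = 0.0375) and in heart by 2.26 ± 0.28 (adjusted p = 0.00337). In heart 3 of 16 tested clock genes rose with age, the others being the repressor genes Ciart (2.01 ± 0.26, adjusted p = 0.00522) and Per2 (1.58 ± 0.30, adjusted p = 0.0375). Ciart was detected in only 1 of 4 young heart samples. In kidney Dbp was the only 1 of 17 to pass, and in brain only Ciart did, at 0.51 ± 0.10 (adjusted p = 0.0275). Of all probes, 0.0942%, 0.85% and 0.624% passed for age in kidney, brain and heart. In brain 0 list genes rose with age with median scaling, without old control 1 or 2, or without young control 2, 3 or 4. The same held with only the compared groups in the fit and with the replicate number as a block. The Ciart call was thus lost in each of these settings. In treated mice against young controls, 4 of 16 rose and 2 fell in heart, among them Dbp (1.92 ± 0.23, adjusted p = 0.00438) and Per1 (1.31 ± 0.21, adjusted p = 0.0175). Dbp was again the only 1 in kidney (1.66 ± 0.18, adjusted p = 0.0102), and 0 of 17 passed in brain, where 3 had an unadjusted limma p under 0.05. Here 0.369%, 1.09% and 0.944% of all probes passed in kidney, brain and heart. Without the kidney array that stood apart, 4 of 17 rose and 2 fell with age there, beside 9.63% of all probes in either direction. In treated mice against young controls 8 rose and 3 fell, beside 8.47% of all probes. With any other single mouse left out, 0 list genes passed for age in kidney, so the age call of Dbp there was lost. In heart 0 list genes passed for age without old control 1. Between treated mice and old controls 0 clock genes passed, with 0, 1 and 3 at an unadjusted limma p under 0.05 in kidney, brain and heart. Whether these genes and the cold-inducible pair differed for a common reason was not tested.

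Few of the genes nearer to RBM3 and CIRBP in sequence or mechanism passed the test with all arrays, and few of all probes did. Of the related RNA-binding and cold shock domain proteins, 18 were tested in kidney, 19 in brain and 18 in heart, and 0 passed for age in limma, with 0, 5 and 5 at an unadjusted p under 0.05. Their median age differences were 0.04, -0.04 and -0.10. Among all tested probes, 875 of 13805, 1827 of 14473 and 1724 of 13773 had an unadjusted limma p under 0.05 for age in kidney, brain and heart. Hnrnpa3, an hnRNP that shares the RNA recognition motif, was lower in brain of treated mice than of young controls, with a difference of -0.43 ± 0.08 (limma adjusted p = 0.0219), and it was detected in 1 of 4 treated mice and 4 of 4 young controls. CLK kinases phosphorylate SR splicing factors and act more strongly at lower temperature. Of 14 tested genes of these families, 0 passed in any limma comparison with all arrays, with 0 to 2 at an unadjusted p under 0.05. Without the kidney array that stood apart, the SR protein kinase gene Srpk1 was lower in old than young controls, with a difference of -0.61 ± 0.14 (adjusted p = 0.0245). It was the only 1 of 14 to pass for age there, beside 9.63% of all probes.

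Of the reported regulators, partners and targets, 25, 22 and 24 were tested in kidney, brain and heart. Creb1, a transcription factor activated by neurotrophin signals, was detected in 0 of 2 old and 4 of 4 young heart controls, at least 1.45-fold lower with age (log2 difference of measured means -0.80 ± 0.15, limma adjusted p = 0.0375). Bdnf, a neurotrophin whose receptor NTRK2 has been placed upstream of RBM3 in mouse brain, was lower in heart of treated mice than of young controls, with a difference of -0.72 ± 0.13 (adjusted p = 0.0293). In brain its age difference of -0.49 ± 0.11 did not pass (adjusted p = 0.0598). Prmt1, which methylates arginines of CIRBP, passed in kidney only without the array that stood apart, at 0.49 ± 0.14 in treated mice against young controls (adjusted p = 0.0468). In that setting it was the only 1 of 25 to pass, beside 8.47% of all probes. With all arrays Prmt1 stood at 0.55 ± 0.16 (adjusted p = 0.210).

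**Figure D4:**
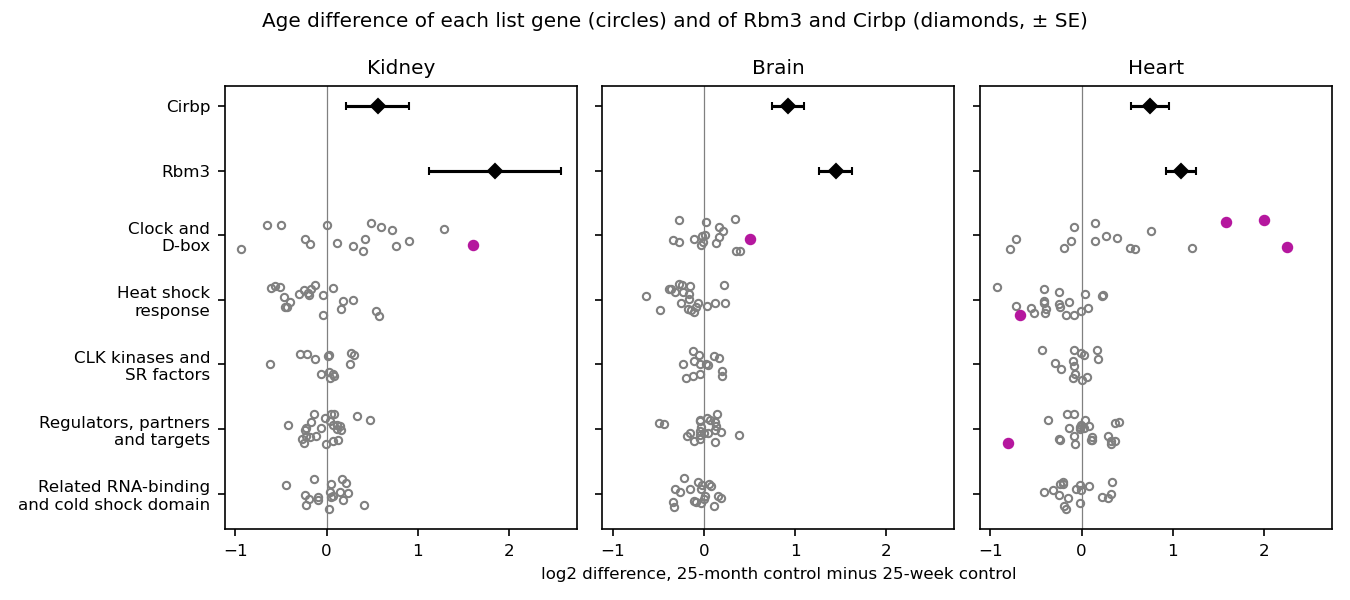
Log2 difference of old from young controls for each tested gene of the 5 lists (circles, filled where the adjusted p is under 0.05) and for Rbm3 and Cirbp (diamonds, ± SE), in kidney, brain and heart. Heat shock genes lie mostly below 0, the pair lies above 0 in every tissue, and Dbp, Ciart and Per2 are the filled clock genes in heart.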

How the data were processed

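Values came from the non-normalized table the authors deposited. Its columns give, per the file headers, linear signal intensity and detection p-values, which compare a probe with the negative control beads. The submitters' processing notes name GenomeStudio 2011.1, and further steps are not given in the sources used here. A second matrix deposited by the authors served as an alternative. In kidney of treated mouse 1 it changed the bright Rbm3 probe from 1318 to 1088 and ILMN_1253012 from 149.4 to 35.7. Subtraction of a constant background was thus not its only step. Its Rbm3 age difference in kidney was 1.787, as with all 30 arrays normalised together, so these settings are not separate checks. Total RNA was isolated with Trizol and cleaned up on columns before cRNA labelling, per the labels.

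Within each tissue, intensities were background-corrected from the detection p-values (normexp, offset 16) and quantile-normalised as log2 values with neqc of limma 3.58.1 (R 4.3.3). Probes detected at p under 0.05 on at least 2 of 10 arrays were tested, with 1 mean per group, limma's empirical Bayes moderation and Benjamini-Hochberg adjustment over all tested probes. The brightest probe in a tissue stood for its gene. Where no array of a group detected a gene, the lower bound of the fold uses, on each such array, the higher of the gene's own level and the lowest detected level. Arrays give no counting depth, so their number limits the precision. Of all probes, 23978 carried a gene symbol in the platform annotation. The 2 members, the gene lists and the tests were chosen with earlier results of these data known. Genes named from a list were up to 4 past the test with the largest difference per tissue and comparison, or, where none of a list passed in a tissue, the 1 with the smallest p; only part of these are named. The leukocyte genes named are those that passed, and the letters searched in promoters came from RefSeq GRCm38.p6 windows. Both tests were tested on simulated data. Alternatives covered background correction, scaling, the authors' matrix, probe choice, detection filters, moderation, the groups in the fit, the replicate number as a block and leaving out each mouse.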

Additional observations from a re-analysis of the deposited data

Results flagged for a closer look

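Of 24 sets of 4 arrays of 1 group, 1 held an array far from the others. The dim Rbm3 probe ILMN_1253012 stood at 5.90 on the log2 scale in brain of young control 4, while the other 3 young controls lay between 5.36 and 5.42, so that the gap took up 0.880 of the range. Chance gives such a gap in about 1 of 20 sets.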

How the results depend on the processing

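The 2 old controls, the reliance on 1 probe per gene, the kidney array of treated mouse 2 and the conflict of titles with ages limit these results. Averaging all Rbm3 probes gave age differences of 0.53 in kidney, 0.54 in brain and 0.23 in heart, and 0.045 in kidney, 0.29 in brain and 0.21 in heart for treated against young mice, since the dim probes enter with equal weight. Without background correction the heart differences of Cirbp were 0.47 for age and 0.57 for treated against young mice. Leaving out single mice gave Rbm3 age differences of 1.18 to 1.71 in brain and 0.86 to 1.31 in heart. Against old controls it gave -0.57 to -0.040 in brain and -0.27 to 0.18 in heart, where the sign turned to 0.18 without old control 1 and to 0.033 without treated mouse 2. The Cirbp difference from old controls turned to 0.035 in brain without old control 1 and to -0.027 in heart without old control 2, and in kidney to 0.11 without old control 1, 0.27 without treated mouse 2 and 0.0037 without background correction.

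The main count of list genes past the test was 1 in kidney, 1 in brain and 5 in heart for age, and 1, 2 and 7 for treated against young mice. Leaving out single mice moved the age counts over 0 to 12, 0 to 2 and 0 to 6, and the others over 0 to 15, 0 to 3 and 2 to 9, with the kidney maxima reached without treated mouse 2. The age count was 0 in kidney without any 1 of the other 9 mice, 0 in brain without either old control or without young control 2 or 3, and 0 in heart without old control 1. In brain the 1 gene called for age was a lower one, not Ciart, with median scaling and without young control 4. The treated count was 0 in brain without young control 1 or 2 or treated mouse 2, 3 or 4, and 0 in kidney without young control 2 or 3 or treated mouse 4. In kidney, the age count was 0 with median scaling and without a detection filter and 18 with only the compared groups in the fit, and the treated count was 2 with median scaling. In brain, the age and treated counts were 7 and 5 without background correction, 4 and 5 with all 30 arrays normalised together, 2 and 4 in the authors' matrix, 2 and 1 without a filter, and 7 and 4 with a variance trend and robust moderation. The brain age count was also 3 with probes averaged and 0 with only the compared groups, and the treated count 4 with detection on 5 arrays. In heart, the age count was 3 with all 30 arrays normalised together, in the authors' matrix and with only the compared groups, and both counts were 2 without a filter. The causes were not tested.

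Replicate numbers did not pair the mice: over 24 pairs of same-numbered arrays the correlation of deviations lay between -0.24 and 0.31, and 3 were over 0.1. With the replicate number as a block, the list counts for age were 0, 0 and 3 in kidney, brain and heart and those for treated against young mice 0, 1 and 5, and the Rbm3 age differences were 2.15, 1.54 and 1.09. The heart difference of Cirbp from old controls turned to -0.033 with the block.

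Median scaling ended the 6 covariation calls, with r of 0.98 and 0.86 for Rbm3 with Cirbp in kidney and brain, 0.52 for Rbm3 and 0.69 for Cirbp between kidney and brain, 0.76 for Cirbp between kidney and heart and 0.81 between brain and heart. Without the 2 farthest mice these r were 0.84, 0.60, 0.91, 0.88, 0.61 and 0.79, in the same order, and none passed after adjustment. Unadjusted, the exact permutation p was 0.0312 for 0.84, 0.0417 for 0.91 and 0.0104 for 0.88. Rbm3 between brain and heart passed at r = 0.85 with all arrays normalised together and in the authors' matrix, which are not separate checks. Leaving out single mice moved r over 0.67 to 0.96, 0.72 to 0.93 and 0.25 to 0.77 for Rbm3 with Cirbp in kidney, brain and heart. For Rbm3 the ranges were 0.66 to 0.83 between kidney and brain, 0.54 to 0.67 between kidney and heart and 0.76 to 0.95 between brain and heart. For Cirbp they were 0.87 to 0.96, 0.69 to 0.92 and 0.83 to 0.98.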
